A study of Mus musculus with 6 samples.

Results

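The genes described here are 10 mouse genes that set how easily a tumor cell is killed: the granzyme inhibitor Serpinb9 and its relative Serpinb6a, the death receptors Fas and Tnfrsf10b, and Casp8, Cflar, Bcl2l1, Mcl1, Bid and Xiap, which control apoptosis inside the cell. They were chosen by name and found by their Ensembl mouse identifiers, and all 10 were present among the 53465 genes of the table. RNA came from EMT6, an established mouse mammary carcinoma line, grown in culture without immune cells. PVITRO cells (labelled EMT6, Isotype Control) were kept for more than 4 weeks with 0.5 μg/ml of a control antibody, and PTRVITRO cells (labelled EMT6 PDR, anti-PD-L1) for the same time with 0.5 μg/ml of an antibody against PD-L1, a surface protein that restrains T cells. There were 3 libraries per group, with 17757341 to 32426739 estimated reads each. The labels do not say whether the 3 libraries were separate cultures, and by default the study describes replicates as technical. A p-value below therefore measures spread among these libraries, which may be technical.

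Cytotoxic T cells and natural killer cells kill by different routes. They deliver granzyme B, a protease that cleaves caspases and Bid, and they engage death receptors, which gather caspase-8 on the receptor tail. Both routes can pass through mitochondria, where Bcl-2 family survival proteins hold back the pore-forming proteins Bax and Bak, and both end in caspases that the IAP proteins (inhibitors of apoptosis) restrain. The comparison asked whether long exposure to the antibody alone, with no immune attack, went along with different transcript levels of these genes. The study also treats Serpinb9 as an interferon-stimulated gene. By qRT-PCR it reports an increase of Serpinb9 in PTRVITRO cells, in an experiment that included cells treated with interferon-β. The values below are from RNA sequencing, a different assay.

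The start regions of 3 of the genes are shown because they hold the core of the interferon-stimulated response element, spelled GAAA, any 2 bases, GAAA and searched on both strands. The windows are RefSeq's for build GRCm38.p6, 250 bases before to 50 bases after the start of a gene, 5′ to 3′ on the strand of the gene, with the matching letters in capitals (all 3 matches lie on the opposite strand, so they read TTTC, any 2 bases, TTTC here). Of the 10 genes, 9 had such a window and 14 windows were found, since Bcl2l1, Xiap and Serpinb6a have several. The gene with no window was Tnfrsf10b.
Serpinb9, chr13:33004291-33004590, plus strand: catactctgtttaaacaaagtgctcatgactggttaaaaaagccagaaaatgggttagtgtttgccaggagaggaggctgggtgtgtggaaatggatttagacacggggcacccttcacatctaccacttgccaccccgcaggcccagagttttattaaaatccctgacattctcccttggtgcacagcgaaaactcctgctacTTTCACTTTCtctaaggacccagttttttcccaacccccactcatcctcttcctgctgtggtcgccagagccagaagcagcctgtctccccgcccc
Serpinb6a, chr13:34002745-34003044, minus strand: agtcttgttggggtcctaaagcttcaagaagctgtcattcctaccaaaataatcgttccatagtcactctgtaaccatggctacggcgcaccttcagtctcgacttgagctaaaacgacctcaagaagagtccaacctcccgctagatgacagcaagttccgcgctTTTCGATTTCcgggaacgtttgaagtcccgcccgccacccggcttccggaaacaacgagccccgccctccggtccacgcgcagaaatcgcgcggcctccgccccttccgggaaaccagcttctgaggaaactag
Cflar, chr1:58711241-58711540, plus strand: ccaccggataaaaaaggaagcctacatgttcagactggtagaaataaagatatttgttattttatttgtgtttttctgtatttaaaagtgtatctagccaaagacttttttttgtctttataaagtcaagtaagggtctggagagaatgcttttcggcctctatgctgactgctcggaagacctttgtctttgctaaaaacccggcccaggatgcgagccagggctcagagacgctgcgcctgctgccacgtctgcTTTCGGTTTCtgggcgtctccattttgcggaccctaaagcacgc

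With the start in RefSeq as position 0, the match lay at -46 to -37 in Serpinb9, at -84 to -75 in Serpinb6a and at 6 to 15 in Cflar. The gene positions given below are from another annotation, GENCODE, and the RefSeq start lies 1291 bases inside the GENCODE extent of Serpinb9, at its edge for Serpinb6a and 17 bases before it for Cflar. Of all 32851 windows of this length, 3.44% hold these letters. The letters TTC, any 3 bases, GAA, the core of the element bound by STAT proteins, were found in windows of Fas and Serpinb6a and are in 8.3% of all windows. In Serpinb6a they lay at -77 to -69, overlapping the capitals, and at 20 to 28. Those of an NF-κB site, GGG, any 2 bases, TTTCC, were found in windows of Mcl1 and Bcl2l1 and are in 1.63%. These matches describe the letters in the windows, not binding.

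None of the 10 genes passed the test between the groups (edgeR quasi-likelihood test, adjusted p below 0.05), against 35 of the 14217 genes tested, or 0.246%. DESeq2, which called 0.946% of the genes it gave an adjusted p, and limma-voom, which called 0.218%, also called 0 of the 10. At an unadjusted edgeR p below 0.05 there were 4 of the 10, Cflar, Serpinb9 and Casp8 with higher and Tnfrsf10b with lower values in PTRVITRO. Over all genes that share was 11.4%. The median log2 fold change of the 10 was 0.02, beside -0.004 over all genes tested. For 9 of the 10 genes, all but Xiap, the 95% interval of the fold change lay within 0.844 to 1.22. In bulk RNA, fewer cells of a kind and less RNA per cell cannot be told apart.

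**Figure D1:**
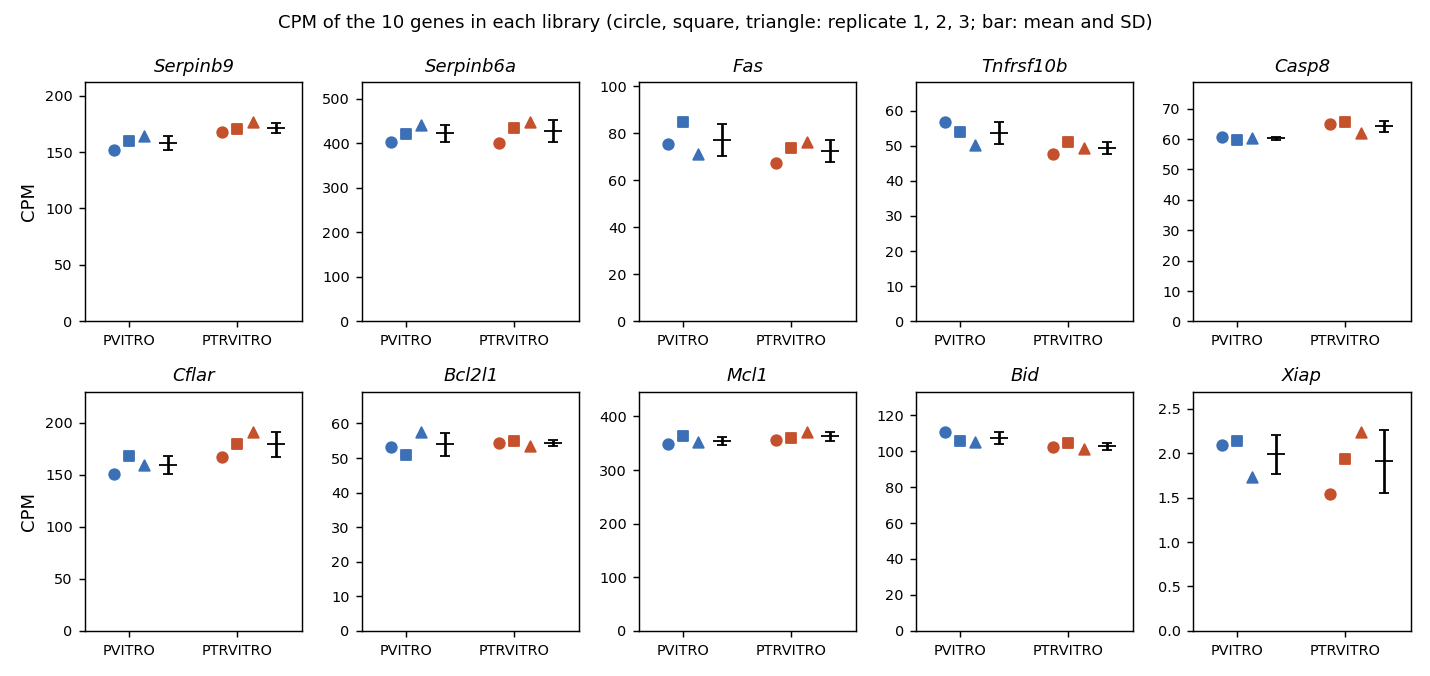
Normalised level (CPM, linear axis from 0) of each of the 10 genes in the 3 PVITRO libraries (blue) and the 3 PTRVITRO libraries (red); the symbols mark the replicate and the black bars give mean and SD. The groups lie apart for Serpinb9, Casp8 and Bid, by little compared with the level of each gene.

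Serpinb9 (ENSMUSG00000045827.10, GRCm38, chromosome 13, 33003250 to 33017957, plus strand) encodes the serpin that traps granzyme B in the cytosol. Its level was 151.4, 159.5 and 163.9 CPM in the PVITRO libraries and 167.3, 170.3 and 176.4 CPM in the PTRVITRO libraries, where CPM is the count relative to the library size, after upper quartile scaling. Every PTRVITRO library was above every PVITRO library. Groups that lie apart in this way, in either direction, were found for 17.6% of all genes tested. The means were 158.3 ± 6.33 and 171.3 ± 4.65 CPM (SD, n = 3). The fold change was 1.08, with a 95% interval of 1.02 to 1.15, and the log2 fold change was 0.11 (SE 0.0408). This did not pass the test (edgeR adjusted p 0.310, unadjusted 0.0186), and across the alternatives and the fits without 1 library the adjusted p ran from 0.177 to 0.610. A difference above 1.15-fold lay outside the interval for these libraries. The estimated counts of Serpinb9 were whole numbers in all 6 libraries, while those of Serpinb6a, Casp8 and Cflar were not whole in any of the 6, so that the values of these 3 are uncertain by the reads that RSEM divided between genes. For Serpinb9, no other gene's transcript matched it at 95% identity over 200 bases.

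Serpinb6a (chromosome 13, 33917918 to 34002794, minus strand) encodes another intracellular serpin of the same clade, an inhibitor of several serine proteases. It was at 403.3, 421.4 and 440.4 CPM in PVITRO and at 400.0, 434.2 and 447.0 CPM in PTRVITRO. The groups overlapped throughout, with a fold change of 1.01 (95% interval 0.942 to 1.09, edgeR adjusted p 0.927). Its transcripts overlap those of Nqo2 over 764 bases and of Ripk1 over 249 bases on the opposite strand, and whether reads were counted by strand is not given in the sources used here. Nqo2 stood at 86.5 ± 4.52 CPM in PVITRO and 86.3 ± 4.32 CPM in PTRVITRO.

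The read count of Serpinb9 relative to that of Serpinb6a, which needs no scaling between libraries, was 0.375, 0.379 and 0.372 in PVITRO and 0.418, 0.392 and 0.395 in PTRVITRO. All 3 PTRVITRO ratios were above the PVITRO ratios. How often the ratios of other gene pairs lie apart in this way was not tested. The log2 difference was 0.10, and it ran from 0.0677 to 0.114 when each library in turn was left out.

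Fas (chromosome 19, 34290666 to 34327772, plus strand) encodes the receptor for Fas ligand. Its CPM was 75.61, 84.75 and 71.20 in PVITRO and 67.36, 73.73 and 76.33 in PTRVITRO. The highest library was PVITRO replicate 2 and the lowest PTRVITRO replicate 1, and the groups overlapped. The fold change of 0.935 had a 95% interval of 0.844 to 1.04 (edgeR adjusted p 0.628). On the log2 scale the difference was -0.10, and it was -0.0222 without PVITRO replicate 2, -0.0433 without PTRVITRO replicate 1 and -0.15 without PVITRO replicate 3.

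Tnfrsf10b (chromosome 14, 69767472 to 69784411, plus strand) encodes the mouse receptor for the ligand TRAIL. It was at 56.68, 53.98 and 50.32 CPM in PVITRO and at 47.50, 51.10 and 49.39 CPM in PTRVITRO. The groups overlapped, because PVITRO replicate 3 lay below PTRVITRO replicate 2. The log2 fold change was -0.12 (SE 0.0527, 95% interval -0.24 to -0.01), which did not pass the test (edgeR adjusted p 0.416, unadjusted 0.0412). When each library in turn was left out, it ran from -0.163 to -0.0774, the latter without PVITRO replicate 1.

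**Figure D2:**
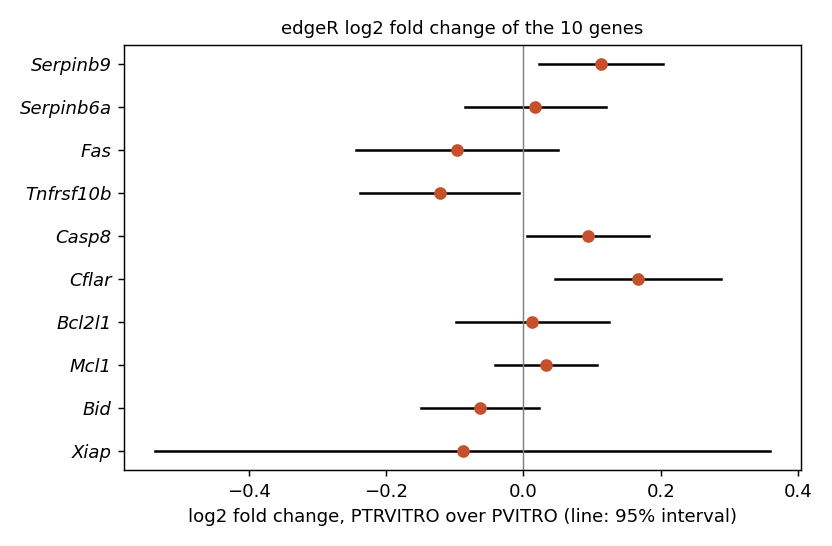
Log2 fold change of each of the 10 genes, PTRVITRO over PVITRO, as points with lines for the 95% interval of the edgeR fit. The intervals of Serpinb9, Casp8 and Cflar lie above 0 and that of Tnfrsf10b below 0 before adjustment for the number of genes, and the interval of Xiap is the widest of the 10.

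Casp8 (chromosome 1, 58795374 to 58847503, plus strand) encodes the protease that death receptors activate first. Its level was 60.79, 59.65 and 60.20 CPM in PVITRO and 64.92, 65.54 and 62.07 CPM in PTRVITRO. The 3 PVITRO libraries lay within 59.65 to 60.79 CPM, and all 3 PTRVITRO libraries were above them. The log2 fold change was 0.09 (SE 0.0402, 95% interval 0.01 to 0.18) and did not pass the test (edgeR adjusted p 0.408, unadjusted 0.0392).

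Cflar (chromosome 1, 58711508 to 58758884, plus strand) lies near Casp8 and encodes c-FLIP, a caspase-8 relative without protease activity that competes with it at the receptor. It was at 150.6, 167.4 and 159.6 CPM in PVITRO and at 166.7, 179.2 and 191.3 CPM in PTRVITRO. PTRVITRO replicate 1 lay just below PVITRO replicate 2, and the other two PTRVITRO libraries were above all of PVITRO. Its change had the largest size of the 10, a fold change of 1.12 (95% interval 1.03 to 1.22) or 0.17 on the log2 scale (SE 0.0547), with an edgeR adjusted p of 0.273 and an unadjusted p of 0.0113. Cflar passed the test in 1 alternative, in which genes of low count were kept (edgeR log2 fold change 0.17, adjusted p 0.0238) and 1.58% of 25274 genes were called. In the other alternatives and the fits without 1 library the adjusted p was 0.127 or higher. A processed pseudogene on chromosome 3, Gm9845, is identical to Cflar over 598 bases, and had 0.813 ± 0.28 CPM in PVITRO and 0.667 ± 0.377 CPM in PTRVITRO.

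The read count of Cflar relative to that of Casp8 was 2.48, 2.81 and 2.65 in PVITRO and 2.57, 2.73 and 3.08 in PTRVITRO. These ratios overlapped, and their log2 difference of 0.08 ran from 0.00482 to 0.137 when each library in turn was left out.

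Mcl1 (chromosome 3, 95658788 to 95663176, plus strand) encodes a short-lived survival protein of the Bcl-2 family. It was at 348.4, 363.5 and 351.8 CPM in PVITRO and at 356.4, 360.4 and 371.7 CPM in PTRVITRO, and the groups overlapped. The fold change was 1.02 (95% interval 0.972 to 1.08, edgeR adjusted p 0.761), the narrowest interval of the 10.

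Bcl2l1 (chromosome 2, 152780668 to 152831728, minus strand) encodes Bcl-xL, another survival protein, and by splicing also the shorter Bcl-xS, which opposes it. A gene count does not separate the isoforms. The CPM was 53.17, 50.91 and 57.64 in PVITRO and 54.31, 55.06 and 53.54 in PTRVITRO. All PTRVITRO libraries lay inside the PVITRO range (fold change 1.01, 95% interval 0.934 to 1.09, edgeR adjusted p 0.951).

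Bid (chromosome 6, 120891930 to 120916853, minus strand) encodes the BH3-only protein that caspase-8 and granzyme B cleave, and which carries the signal to mitochondria. It was at 110.9, 105.7 and 105.3 CPM in PVITRO and at 102.2, 104.7 and 101.0 CPM in PTRVITRO. Each PTRVITRO library was below each PVITRO library, the nearest pair being 104.7 and 105.3 CPM. Groups that lie apart with PTRVITRO lower were found for 9.33% of genes tested. The difference on the log2 scale, -0.06 (SE 0.0392, 95% interval -0.15 to 0.02), did not pass the test (edgeR adjusted p 0.583, unadjusted 0.135). When each library in turn was left out, it ran from -0.0764 to -0.0339, the latter without PVITRO replicate 1. Bid overlaps Bcl2l13 over 629 bases on the opposite strand, which had 62.5 ± 4.24 CPM in PVITRO and 61.9 ± 4.01 CPM in PTRVITRO.

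Mcl1 reads per Bid read numbered 3.14, 3.44 and 3.34 in PVITRO and 3.49, 3.44 and 3.68 in PTRVITRO. The ratio was higher in all PTRVITRO libraries, though PVITRO replicate 2 and PTRVITRO replicate 2 were equal to 3 digits. Here too, the share of other gene pairs that lie apart was not tested. The ratio of Bcl2l1 to Bid ran from 0.479 to 0.548 in PVITRO and from 0.526 to 0.531 in PTRVITRO and overlapped. The log2 difference was 0.10 for Mcl1 (0.0605 without PVITRO replicate 1 to 0.126 without PVITRO replicate 2) and 0.08 for Bcl2l1 (0.0432 without PVITRO replicate 1 to 0.139 without PVITRO replicate 3).

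Xiap (chromosome X, 42059679 to 42109656, plus strand) encodes the IAP protein that binds and blocks active caspases directly. It had 49, 63.81 and 42 estimated reads in PVITRO and 50, 54.69 and 39.92 in PTRVITRO, a mean of 49.9, against at least 1340 on average for each of the other members. In CPM this was 2.098, 2.136 and 1.737 in PVITRO and 1.542, 1.941 and 2.245 in PTRVITRO. The lowest and the highest library were both PTRVITRO. The 95% interval of the fold change, 0.689 to 1.28, was the widest of the 10 (edgeR adjusted p 0.912). DESeq2 gave Xiap no adjusted p. A processed pseudogene that matches Xiap at 91.75% over 1504 bases, Gm17791, had a mean of 1.93 reads. Xiap and Gm17791 summed to 2.03 CPM in PVITRO and 2.04 CPM in PTRVITRO, a log2 ratio of these means of 0.01, against -0.06 for the means of Xiap alone, so the direction turned when these reads were included.

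The levels of the genes can be set beside each other only per length, here as CPM per kilobase of annotated exon. On this scale Mcl1 was highest (104 ± 2.3 in PVITRO, 106 ± 2.3 in PTRVITRO), followed by Serpinb6a (78.0 ± 3.4 and 79.0 ± 4.5) and Serpinb9 (45.3 ± 1.8 and 49.0 ± 1.3). Fas stood at 37.4 ± 3.4 and 35.1 ± 2.2, Bid at 30.2 ± 0.89 and 28.9 ± 0.53, and Casp8 at 20.8 ± 0.2 and 22.2 ± 0.64. Cflar, at 12.6 ± 0.66 and 14.1 ± 0.97, Bcl2l1, at 11.8 ± 0.75 and 11.8 ± 0.17, and Tnfrsf10b, at 9.84 ± 0.59 and 9.05 ± 0.33, came next, and Xiap was lowest at 0.21 ± 0.023 and 0.202 ± 0.037. Over the 6 libraries the ranges of Cflar (11.9 to 15.1) and Bcl2l1 (11.1 to 12.6) overlapped, and no other neighbors in this order did. Serpinb9 was above 90.8% of the genes tested per length, Mcl1 above 95.8% and Xiap above 4.75%. The length counts every annotated exon, so a gene with long alternative exons, such as Cflar with 12669 bases, is placed lower than its main transcript would be.

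**Figure D3:**
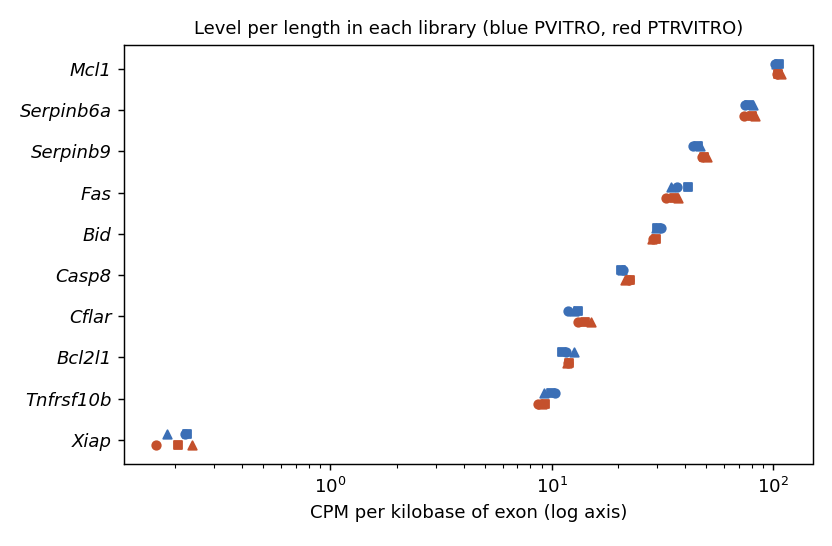
Level of each of the 10 genes per kilobase of annotated exon (log axis) in the PVITRO libraries (blue) and the PTRVITRO libraries (red), in order of the mean. From Mcl1 to Tnfrsf10b the levels run from 109 to 8.71 CPM per kilobase, and the 6 values of Xiap lie between 0.163 and 0.237.

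The pattern most like that of Serpinb9 over the 6 libraries was found by the Pearson correlation of log2 CPM among 10421 other genes with at least 5 CPM. This is a description of 6 libraries, in which the values of all genes in a library share 1 depth and 1 scaling factor. The 5 highest were Gm10145 (r = 0.995), Pard6b (0.994), Serpinb9b (0.987), Dcp1a (0.987) and Zwilch (0.987). Of these, Serpinb9b is a neighbor of Serpinb9 on chromosome 13 (start 33027416) and a serpin of the same clade. It was at 51.76, 54.64 and 56.15 CPM in PVITRO and at 58.85, 60.17 and 61.45 CPM in PTRVITRO. Its groups did not overlap, and its log2 fold change, 0.15, did not pass the test (edgeR adjusted p 0.226). Among the other members, the correlation with Serpinb9 was 0.914 for Cflar, 0.742 for Mcl1, 0.628 for Serpinb6a, 0.537 for Casp8, 0.277 for Bcl2l1, -0.263 for Fas, -0.817 for Tnfrsf10b and -0.927 for Bid. Xiap was below the level limit. Of the genes ranked, 1.54% had a higher r than Cflar and 8.78% a higher r than Mcl1. This share was 14.7% for Serpinb6a, 19.3% for Casp8 and 32.9% for Bcl2l1. It was 61.7% for Fas, 94.2% for Tnfrsf10b and 98.9% for Bid.

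The other genes of these pathways were taken from 9 lists with 87 genes, of which 63 were tested. None was called in either direction by edgeR, DESeq2 or limma-voom, or in any other alternative fit. At an unadjusted edgeR p below 0.05, 3 were higher and 5 lower in PTRVITRO, where the shares over all genes were 5.26% and 6.13%. The median log2 fold change of the 63 was -0.01, with 27 positive and 36 negative, beside 6893 positive and 7324 negative over all genes.

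Of 16 other clade B serpins, most of them on chromosome 13 near Serpinb9, 9 were tested, with 7 positive and 2 negative log2 fold changes and a median of 0.15. Serpinb9b is described above. Serpinb1b, which belongs to a group of elastase inhibitors, had 3.97 ± 0.46 CPM in PVITRO and 5.151 ± 0.614 CPM in PTRVITRO (log2 fold change 0.37, edgeR adjusted p 0.356). The estimated counts of both Serpinb9b and Serpinb1b were not whole in any library either, with the same uncertainty. Which genes shared those reads was not tested.

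Of 14 other death receptors, decoys and ligands, 9 were tested (5 with positive and 4 with negative log2 fold changes). Tnfrsf1a, the main TNF receptor, was at 86.03 ± 2.97 CPM in PVITRO and 84.76 ± 1.23 CPM in PTRVITRO. Ltbr, the lymphotoxin β receptor, was at 72.32 ± 1.58 and 66.62 ± 1.99 CPM (log2 fold change -0.12, edgeR adjusted p 0.302), and its groups did not overlap. Tnfrsf26 was near 1 CPM or below in every library, with a log2 fold change of -0.60 (adjusted p 0.427). Tnf was the one ligand gene with enough reads to be tested, at 48.65 ± 1.85 and 52.06 ± 1.1 CPM (adjusted p 0.448), while Fasl had a mean count of 0.5 and Tnfsf10, which encodes TRAIL, of 6.5.

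All 13 adaptors and regulators of the receptor complex were tested (4 positive, 9 negative). Traf1, an adaptor of TNF receptors, was at 240.0 ± 33.1 CPM in PVITRO and 254.2 ± 14 CPM in PTRVITRO. Rbck1, a subunit of the linear ubiquitin ligase complex, stood at 108.0 ± 2.35 and 100.4 ± 4.28 CPM with groups that did not overlap (log2 fold change -0.10, edgeR adjusted p 0.391). The adaptor Fadd stood at 10.28 ± 0.495 and 10.95 ± 0.998 CPM.

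In the Bcl-2 family, 3 of 6 other survival genes (2 positive, 1 negative), 3 of 7 other BH3-only genes (0 positive, 3 negative) and 3 of 3 pore-forming genes (1 positive, 2 negative) were tested, and none had an unadjusted p below 0.05. Bcl2l2, which encodes Bcl-w, was at 55.88 ± 2.18 and 54.65 ± 1.62 CPM in PVITRO and PTRVITRO. Bbc3, which encodes Puma, was at 28.71 ± 0.884 and 27.55 ± 0.858 CPM. Bax was at 105.2 ± 4.1 and 107.5 ± 0.943 CPM, 0.03 apart on the log2 scale (edgeR adjusted p 0.818). Pmaip1, which encodes Noxa, had a count of 0 in every library, which allows a level of up to 0.169 CPM in the shallowest one (3 counts, counting error only).

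Of 9 other IAP genes and antagonists, 8 were tested (3 positive, 5 negative). Birc6, a very large IAP protein, was at 154.7 ± 12.9 and 153.8 ± 9.08 CPM. Birc2, which encodes cIAP1, was at 26.5 ± 2.26 and 22.85 ± 2.02 CPM (log2 fold change -0.21, edgeR adjusted p 0.348). Xaf1, an interferon-induced antagonist of Xiap, was at 43.9 ± 2.26 and 47.6 ± 2.14 CPM (log2 fold change 0.12, adjusted p 0.423). The groups overlapped for both.

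All 7 other caspase and apoptosome genes were tested. Cycs, which encodes cytochrome c, was at 169.2 ± 5.15 and 180.5 ± 7.62 CPM. Their list had a median log2 fold change of 0.03, with 4 positive and 3 negative.

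Of 12 genes of granzymes, gasdermins and necroptosis, 8 were tested (1 positive, 7 negative). Gsdmd, which encodes a pore-forming protein of pyroptosis, was at 91.31 ± 2.2 and 89.37 ± 1.58 CPM. The granzymes Gzma and Gzmb and the perforin gene Prf1 had a count of 0 in all 6 libraries, as did Ripk3, a kinase of necroptosis, while its substrate Mlkl was at 37.99 ± 1.24 and 37.61 ± 1.69 CPM. Fadd, Tnf, Fasl, Tnfsf10, Tnfrsf25, Pmaip1, Mlkl and the genes at 0 were picked for mention after their values had been seen.

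**Figure D4:**
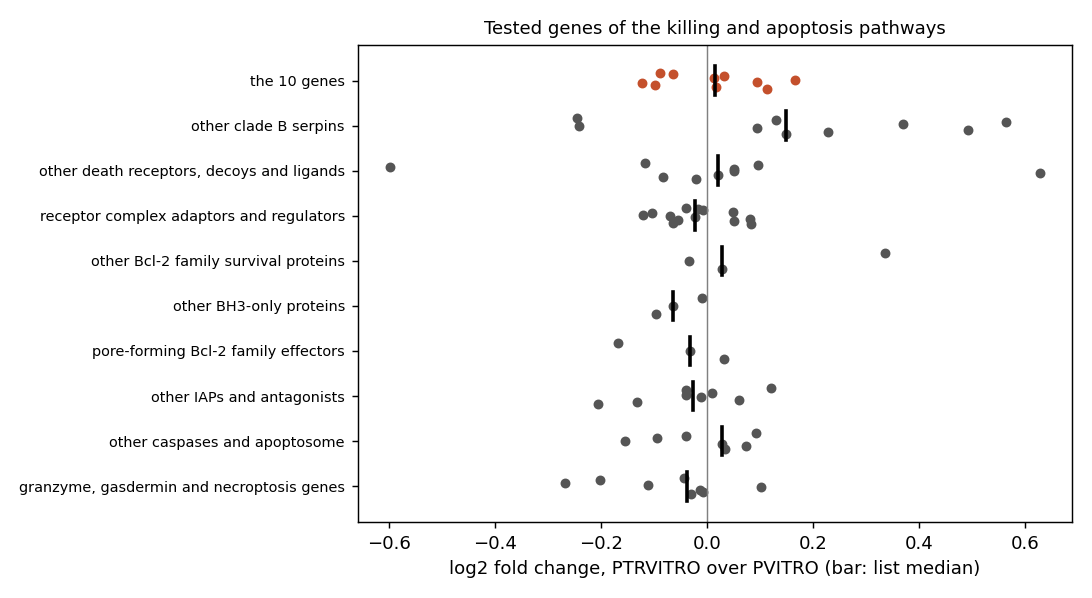
Log2 fold change, PTRVITRO over PVITRO, of the 10 genes (red) and of the tested genes of the 9 pathway lists (grey), with black bars for list medians. All list medians lie between -0.06 and 0.15, and the genes farthest from 0, Tnfrsf26 at -0.60 and Tnfrsf25 at 0.63, have mean counts near 20.8 and 14.5.

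Markers of other cells were checked in the same libraries. Of 13 lymphocyte and myeloid markers, Ptprc, Cd8a, Nkg7, Klrb1c and Adgre1 had a count of 0 in all libraries, and 1, Cd68, was above 3 counts in every library (12.57 ± 0.767 and 12.18 ± 0.798 CPM). Their sum ran from 11.9 to 13.3 CPM in PVITRO and from 11.4 to 13.2 CPM in PTRVITRO. Of 7 epithelial and carcinoma markers, 6 were above 3 counts in every library. Vim, which is not specific to epithelial cells, was at 1889 ± 23.7 and 1890.0 ± 71.4 CPM. The keratin Krt8 was at 1077 ± 48.7 and 1086 ± 20.9 CPM. Krt7 reached at most 0.6616 CPM in PVITRO and 0.8418 CPM in PTRVITRO, and the epithelial cadherin Cdh1 had a mean count of 0.333. Krt18 (log2 fold change 0.17, edgeR adjusted p 0.139), Epcam (0.48, adjusted p 0.392) and Krt14 (-0.25, adjusted p 0.347) had groups that did not overlap and were not called. Of 8 fibroblast, endothelial and muscle markers, 2 were above 3 counts in every library, Pdgfra and Dcn. Their sum was 44.2 to 55.0 CPM in PVITRO and 34.1 to 41.6 CPM in PTRVITRO, mostly through Dcn (log2 fold change -0.56, adjusted p 0.0919). The part of this difference in the values of the 10 genes was not tested.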

How the data were processed

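Polyadenylated RNA of 6 EMT6 libraries (3 PVITRO, 3 PTRVITRO) was prepared with a stranded kit. The authors aligned reads with STAR 2.6.0a to GRCm38, checked them with FastQC 0.11.5 and quantified them with RSEM 1.3.1, and deposited gene-level estimated counts (expected counts), not scaled between libraries. Between 12.5% and 13.8% of the values of a library were not whole, and counts were rounded. All sample columns matched a label.

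Genes were filtered with filterByExpr (minimum count 10, minimum total 15), scaled by the upper quartile and tested with the edgeR 4.0.16 quasi-likelihood F test (R 4.3.3). The model held the group alone, and Benjamini-Hochberg adjustment ran over the 14217 genes tested. Standard errors and 95% intervals were derived from the F statistic. Values are mean ± SD over 3 libraries. The fit was tested on simulated data. The alternatives were TMM, no scaling factor, DESeq2 1.42.0, voom with limma 3.58.1, other filters, a replicate block and leaving out each library. Libraries of a group differed by more than sampling noise (chi-square per degree of freedom 2.59 to 7.52). Symbols, positions and exon lengths came from GENCODE M21 on GRCm38, with 53274 of 53465 identifiers matched. Similar transcripts were searched with BLAST+ 2.17.0, at 95% identity over 200 bases or 90% over 1000 bases.

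Genes named in the text were the 10 members, and from each pathway list the gene of highest mean CPM, any called gene and the 2 with the smallest unadjusted p if below 0.05. The others are named as later choices, and some genes under this rule are not reported here. The members and lists were chosen with earlier results of these data known.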

Additional observations from a re-analysis of the deposited data

How the results depend on the processing

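In 7 other settings the 10 genes gave 69 comparisons, Xiap having no adjusted p from DESeq2, and 68 kept their direction and their side of the threshold. The exception was Cflar, which passed without a filter on low counts (0.169 on the log2 scale), so that 1 of the 10 genes was called there, beside 400 of 25274 genes (1.58%), and 0 in every other fit. The cause was not tested. Of 60 comparisons with 1 library left out, 56 were unchanged in this sense and 4 reversed: Serpinb6a without PVITRO replicate 1 (-0.00817) and without PTRVITRO replicate 3 (-0.0116), Bcl2l1 without PVITRO replicate 2 (-0.0275) and Xiap without PTRVITRO replicate 1 (0.0583). Over these fits Serpinb6a ran from -0.0116 to 0.0643, Bcl2l1 from -0.0275 to 0.0652 and Xiap from -0.197 to 0.0583. The median log2 fold change of the 10 genes ran from -0.00238 without PVITRO replicate 2 to 0.0526 without PTRVITRO replicate 1.

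Over all genes, the 35 calls became 111 by DESeq2, 68 under a replicate block, 400 of 25274 where no genes of low count were removed and 54 where every sample needed 10 counts. Leaving out 1 library gave 8 (without PTRVITRO replicate 3) to 64 (without PVITRO replicate 2). The cause was not tested. The labels do not say whether the replicate numbers pair the samples. Correlations between same-numbered libraries were 0.109, 0.095 and -0.0556. Differently numbered libraries were not compared, so these values do not settle pairing. With the replicate block the log2 fold change of Serpinb9 was 0.115 (edgeR adjusted p 0.177), and 0 of the 10 genes were called. Xiap had the fewest reads of the 10 genes, a mean of 49.9, and the widest interval, and an effect of depth was not tested.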
